A study of Mus musculus with 6 samples.

Results

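Actins and tropomyosins were followed here in macrophages sorted from injured dorsal root ganglia (DRG). The members are 7 genes, Acta2, Actb, Actg1, Tpm1, Tpm2, Tpm3 and Tpm4, and all probe sets that the platform annotation gives to 1 of them. These were 20 of the 45037 probe sets tested. Beside Actb stand the 3 Affymetrix control probe sets for mouse beta-actin, which were kept out of the test over all probe sets. Macrophages carrying F4/80 and CD11b were sorted by FACS from pools of ipsilateral DRG (levels L4 and L5), with the sort on day 7 after spared nerve injury (SNI), a lesion of branches of the sciatic nerve. There were 3 arrays from WT mice and 3 from miR-21 cKO mice, each of an independently collected pool. Both genotypes had the injury, and both were male littermates aged 8 to 10 weeks. In miR-21 cKO mice a conditional miR-21 allele, crossed first with a FLP-deleter line, was removed by Avil-Cre, which is active in sensory neurons. The sorted macrophages therefore were not the cells in which the gene was deleted. How many mice went into each pool is not known here.

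Actin polymerises into filaments that give a macrophage its shape, its protrusions and the cup with which it engulfs particles. Actb and Actg1 encode the cytoplasmic actins that nearly every cell makes, and Acta2 encodes the actin of smooth muscle, pericytes and myofibroblasts. Tropomyosins are rods that lie along the filament and set which myosins and severing proteins reach it, and each of the Tpm genes gives several isoforms by alternative promoters and splicing. Tpm1 is a known target of miR-21 in other cells. The comparison asks whether macrophage RNA for these genes differs when miR-21 is deleted in the neighbouring sensory neurons.

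The miRNA is shown because the genotypes differ by it, with its seed (bases 2 to 8) in capitals. It is the RefSeq entry on GRCm38.p6, minus strand of chr11:86584120-86584141.
mmu-miR-21a-5p: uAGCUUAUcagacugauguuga
RefSeq promoter windows, which run from 250 bases before to 50 bases after a gene's start, matched 6 of the 7 genes. Actb had no window and was not searched. These windows were searched on both strands for the CArG box, the element bound by serum response factor (SRF), which drives many actin genes, and for TATATA. Only the exact CArG pattern was sought, CC, then 6 bases of A or T, then GG, and looser forms were not. A CArG box lay in 1.63% of 32851 windows of that length and, among the members, in Actg1. TATATA lay in 5.67% of them and, among the members, in Acta2 and Tpm1. The 30 bases around each of these matches are printed to show the letters behind the counts, and capitals mark the match.
Acta2, chr19:34255348-34255377, minus strand: agagcaaggggcTATATAacccttcagcgt
Tpm1, chr9:67049414-67049443, minus strand: ctcgggtccccaTATATAgtcatatccacc
Actg1, chr11:120348566-120348595, minus strand: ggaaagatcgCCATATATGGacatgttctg
The match in Acta2 lay at bases 8 to 13 after the annotated start, that in Tpm1 at bases -218 to -213 and that in Actg1 at bases -90 to -81. A match is a run of letters and not a shown binding site.

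Each array gave 1 MAS5 signal per probe set on a linear scale, in arbitrary units, and values are given in the order of arrays 1, 2 and 3 of each genotype. Probes differ in how strongly they bind, so a signal was set only against the same probe set on other arrays. Arrays were poorly alike, with Spearman correlations across probe sets of 0.238 to 0.319 within WT, 0.211 to 0.240 within miR-21 cKO and 0.192 to 0.303 between genotypes. As background served the 95th percentile of the mean log2 signals over the 6 arrays of 44 olfactory receptor probe sets, a signal of 1100. Single values spread more widely than such means. Of all probe sets 4.25% had a mean above this line, against 15.4% of all single values. A signal above it is no proof that a gene was expressed. RNA was amplified with a kit made for whole-transcript arrays and put on an array for 3' ends, and no source used here says whether the labelled strand fits the probes. The annotation names miR-21 for no probe set, so the genotypes rest on the labels. The sort marker Adgre1 (F4/80) read 2237, 2559 and 1979 in WT and 2095, 96.9 and 2821 in miR-21 cKO, so that miR-21 cKO array 2 stood far below the rest. The sort marker Itgam (CD11b) read 157, 45.7 and 985 in WT and 1016, 983 and 1296 in miR-21 cKO, above the background on miR-21 cKO array 3 alone.

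Of the 20 probe sets, 1 of Actb (1436722_a_at) rose in miR-21 cKO and 0 fell, at the thresholds of the methods (unadjusted p under 0.05 in limma and at least 2-fold). This is 5% of the members against 4.51% of all probe sets, of which 2.11% were higher and 2.4% lower. Without WT array 2 or without miR-21 cKO array 3 no member passed, and without WT array 3 there were 2, with Tpm2 1449577_x_at added. After Benjamini-Hochberg adjustment in limma 0 members passed, against 0.0222% of all probe sets. Differences were positive for 14 members, or 70%, against 48.9% of all probe sets, and negative for 6. The median log2 difference (miR-21 cKO minus WT) was 0.48 against -0.03 for all probe sets. The members' signals lay mostly in the range of the background, since 20 of their 120 values, or 16.7%, were above it, against 15.4% of all values. None of the 20 probe sets was above it on all 6 arrays, and 7 were below it on all 6.

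**Figure D1:**
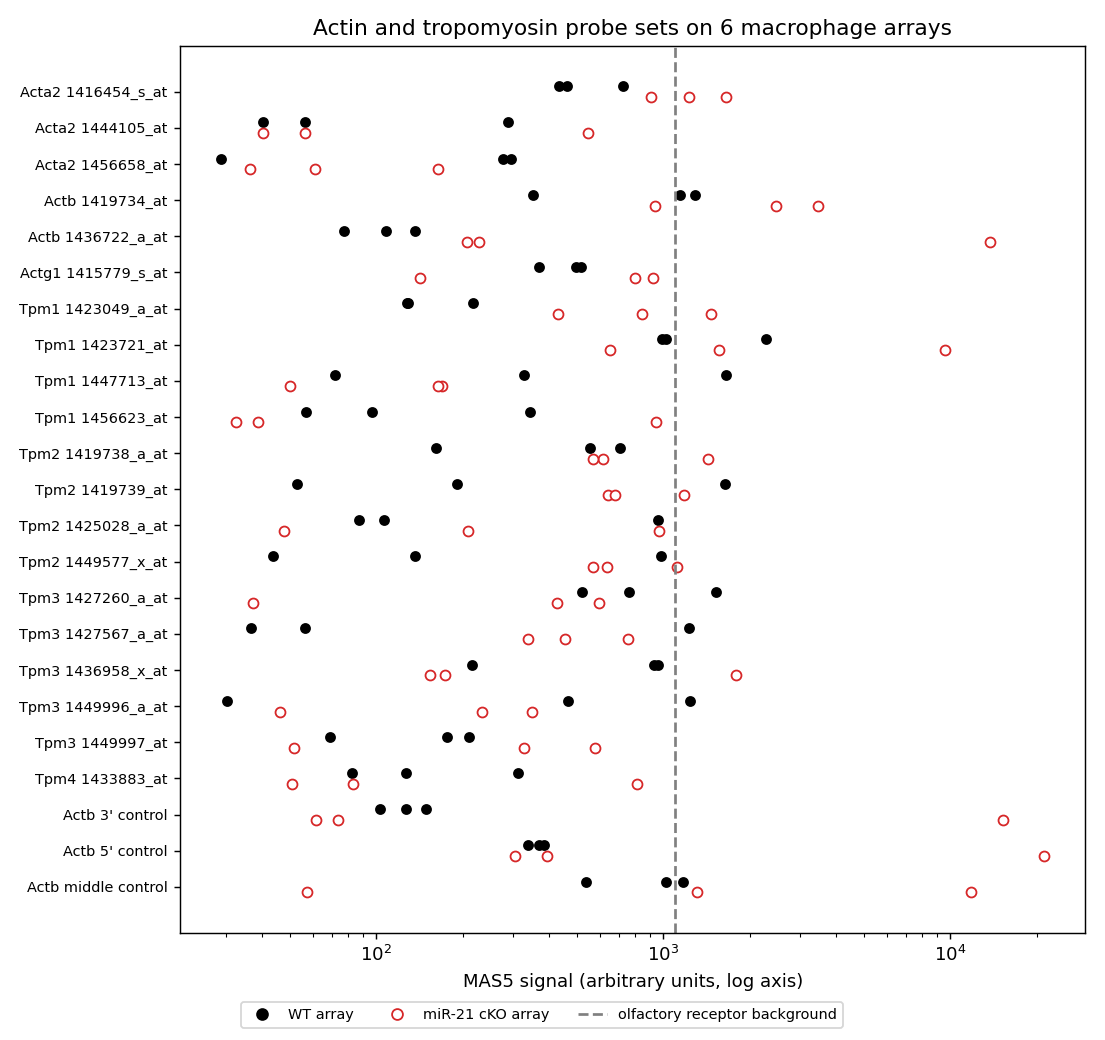
MAS5 signal (arbitrary units, log axis) of each actin and tropomyosin probe set and of the 3 beta-actin controls, with 1 point per array, filled for WT and open for miR-21 cKO (n = 3 each). The dashed line is the olfactory receptor background at 1100. The genotypes separate in Acta2 1416454_s_at, Actb 1436722_a_at and Tpm1 1423049_a_at, and the open points at the far right in Actb 1436722_a_at and the controls are miR-21 cKO array 3.

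The genotypes did not overlap in 3 of the 20 probe sets, or 15%, each time with the miR-21 cKO arrays above the WT arrays. Over all probe sets 9.81% did not overlap, and in 4.74% all miR-21 cKO arrays were above all WT arrays. The 3 were 1 probe set each of Acta2, Actb and Tpm1. The methods' t-test, a test of each probe set by its own spread, called 2 members, Acta2 1416454_s_at and Tpm1 1423049_a_at, against 2.41% of all probe sets called higher. The smallest adjusted p among the members in that test was 0.745.

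**Figure D2:**
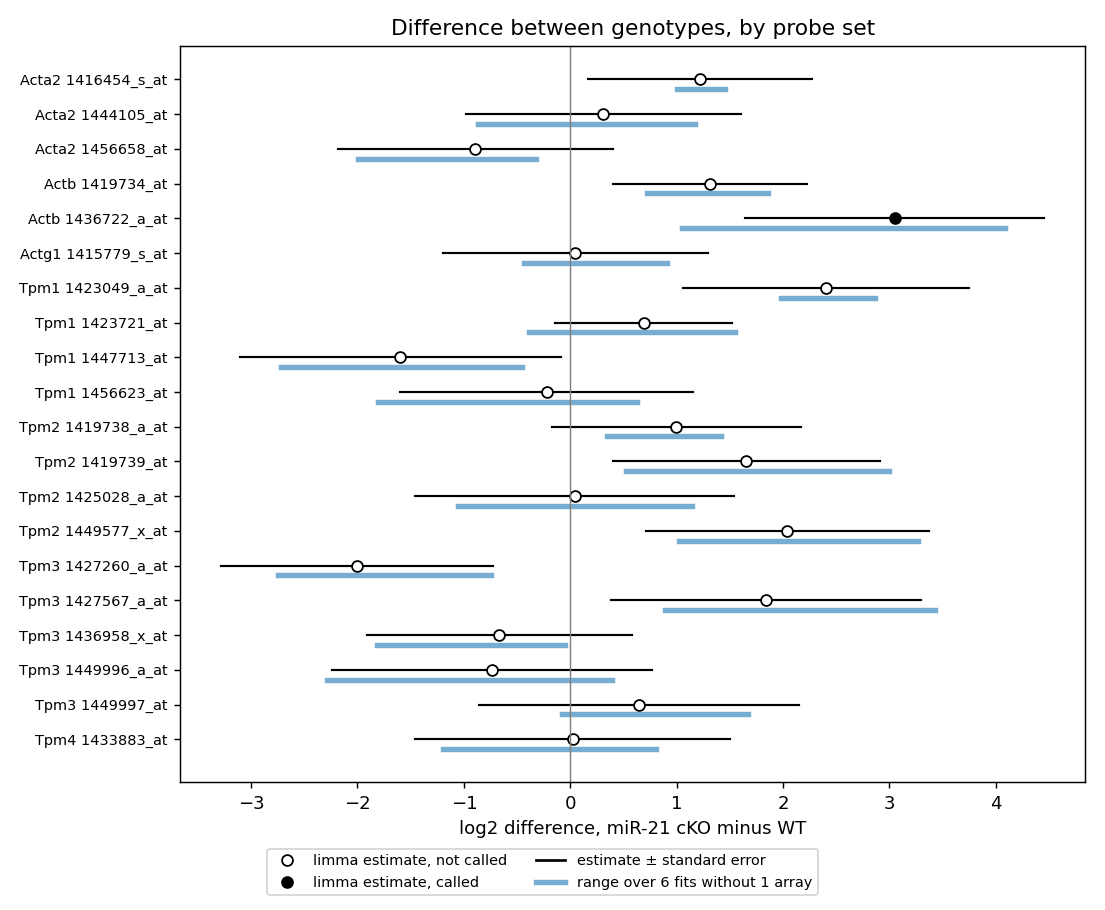
Log2 difference (miR-21 cKO minus WT, n = 3 arrays each) of each member probe set from limma, with 1 standard error as the black line and the range over the 6 fits that leave out 1 array as the blue bar. The filled point, Actb 1436722_a_at at 3.05, is the member that passed the thresholds of the methods. The blue bars of 8 members cross 0.

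Acta2, the smooth muscle actin, was read by 3 probe sets that went different ways. Probe set 1416454_s_at read 433, 463 and 724 in WT and 910, 1655 and 1225 in miR-21 cKO. Every miR-21 cKO array was above every WT array, and the highest WT array and the lowest miR-21 cKO array lay close together. Only miR-21 cKO arrays 2 and 3 were above the background. On the log2 scale the level was 9.04 ± 0.40 (SD, n = 3) for WT against 10.26 ± 0.43 (SD, n = 3) for miR-21 cKO, a difference of 1.22. The exact permutation test over arrays, two-sided, gave p = 0.1, the smallest that 3 against 3 arrays allow, and limma gave p = 0.246. The standard error in limma, 1.05, comes from the spread of probe sets of like brightness, and the adjusted p was 0.9999. The methods' t-test, which uses the narrower spread of this probe set itself and, unlike the exact test, assumes a normal one, gave p = 0.0230. Its 95% interval for the difference ran from 0.28 to 2.17. Leaving out any 1 array kept the difference between 1.01 and 1.45.

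The other Acta2 probe sets did not follow it. Probe set 1444105_at read 288, 56.5 and 40.2 in WT and 56.4, 549 and 40.3 in miR-21 cKO, with a log2 difference of 0.31 (SE 1.29 in limma) that turned to -0.86 without miR-21 cKO array 2. Probe set 1456658_at read 276, 28.9 and 294 in WT and 36.4, 165 and 61.2 in miR-21 cKO, with a log2 difference of -0.89 (SE 1.30 in limma). Both lay below the background on every array. The mean log2 difference over the 3 Acta2 probe sets was 0.21. The suffix _s_at marks a set whose probes are shared by more than 1 transcript, and the coding sequences of the actin genes are much alike. The other muscle actins had log2 differences of 0.03 (Acta1), -0.29 (Actc1) and -0.25 (Actg2), and none was above the background on any array.

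Acta2 marks mural cells, so the markers of smooth muscle and pericytes stand beside it. Of 18 measured, Rgs5, a regulator of G protein signalling found in pericytes, rose by 2.91 on the log2 scale, and Des, the muscle intermediate filament protein desmin, fell by 3.03 (limma, adjusted p = 0.9999 for Rgs5 and 0.877 for Des). Over all genes 2.09% were higher and 2.28% lower by this rule. Rgs5 passed in 4 of 6 fits without 1 array and not without WT array 2 (1.97) or miR-21 cKO array 1, and Des passed in all 6. The methods' t-test called Des and not Rgs5, and this was 1 of 4 Rgs5 and 1 of 2 Des probe sets that passed in that direction. The genotypes did not overlap in 4 of the 18 markers, against the 9.81% of all probe sets, with 2 higher in miR-21 cKO (Mylk and Abcc9) and 2 lower (Des and Cspg4), named here after their values were seen. Myh11, the smooth muscle myosin, read 137, 106 and 106 in WT and 1218, 44.3 and 95.9 in miR-21 cKO. Tagln (transgelin) read 101, 199 and 680 in WT and 288, 157 and 397 in miR-21 cKO, and Cnn1 (calponin) read 182, 157 and 293 in WT and 305, 531 and 115 in miR-21 cKO. All these values of Tagln and Cnn1 were below the background, and Myh11 was above it on miR-21 cKO array 1 alone. The summed signal of the 18 markers was 10069 to 13070 in WT and 7457 to 14411 in miR-21 cKO, which overlap. The part of mural cells in the Acta2 signal was not tested. In RNA of sorted pools, fewer cells of a type and less RNA per cell cannot be told apart.

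Tpm1, the tropomyosin that miR-21 is known to target in other cells, was read by 4 probe sets, and 1 of them separated the genotypes. Probe set 1423049_a_at read 129, 128 and 218 in WT and 430, 1462 and 846 in miR-21 cKO. The lowest miR-21 cKO array was clear of the highest WT array. All 3 WT arrays were well below the background, and only miR-21 cKO array 2 was above it. The fold is therefore one of measured signals only. On the log2 scale the level was 7.26 ± 0.44 (SD, n = 3) for WT against 9.66 ± 0.88 (SD, n = 3) for miR-21 cKO, a difference of 2.40 (SE 1.35 in limma). Limma gave p = 0.0742 and an adjusted p of 0.9999, the methods' t-test p = 0.0135, and the exact permutation test its smallest value of 0.1. Leaving out any 1 array kept the difference between 1.98 and 2.86. With signals below their 25th percentile raised to it, limma gave p = 0.0483 for it, and the values of this probe set and so its exact test stayed the same.

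The other Tpm1 probe sets overlapped between the genotypes. Probe set 1423721_at, the one of the 4 with the highest mean, read 2283, 992 and 1022 in WT and 652, 9588 and 1561 in miR-21 cKO. Its log2 difference of 0.69 (SE 0.83 in limma) turned to -0.39 without miR-21 cKO array 2, the array with the one very high value. Probe set 1447713_at read 71.8, 326 and 1652 in WT and 49.998, 169 and 164 in miR-21 cKO, a log2 difference of -1.60 (SE 1.51 in limma). Probe set 1456623_at read 96.3, 344 and 56.9 in WT and 38.6, 32.5 and 947 in miR-21 cKO, a log2 difference of -0.22 (SE 1.38 in limma). So 2 of the 4 Tpm1 differences were positive and 2 negative, and the mean log2 difference over the 4 was 0.32.

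**Figure D3:**
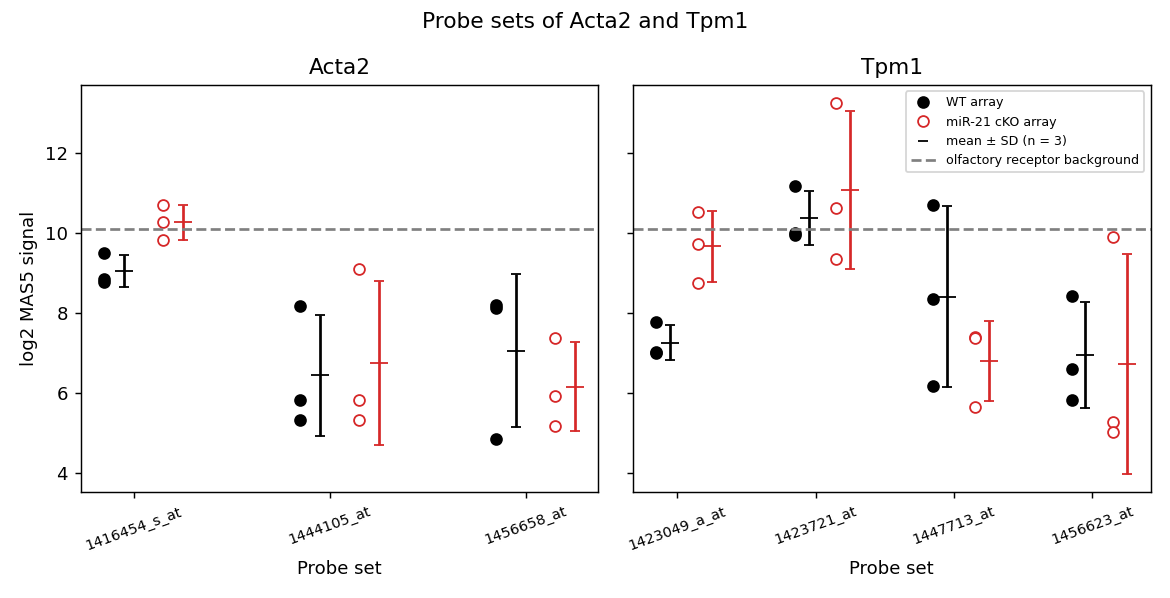
Log2 MAS5 signal of the 3 Acta2 probe sets (left) and the 4 Tpm1 probe sets (right), with 1 point per array, filled for WT and open for miR-21 cKO, and the mean with SD (n = 3) beside each group. The dashed line is the olfactory receptor background at 10.10. Acta2 1416454_s_at and Tpm1 1423049_a_at separate the genotypes, and the other 5 probe sets overlap.

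Actb, the cytoplasmic beta-actin, had positive log2 differences in both of its probe sets, and for 1 of them the size rested on a single array. Probe set 1436722_a_at read 108, 77.1 and 137 in WT and 227, 207 and 13784 in miR-21 cKO. The genotypes did not overlap, but miR-21 cKO array 3 was 60.7 times the highest of the other arrays, which were all far below the background. The log2 difference was 3.05 (SE 1.41 in limma, adjusted p = 0.9999). Limma gave p = 0.0301, the methods' t-test p = 0.204 and the exact permutation test its smallest value of 0.1. Without miR-21 cKO array 3 the log2 difference was 1.05 and did not pass, and without WT array 2 it was 2.83 and did not pass.

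Probe set 1419734_at of Actb read 1144, 352 and 1289 in WT and 3463, 934 and 2464 in miR-21 cKO. The groups overlapped, since miR-21 cKO array 2 was below WT arrays 1 and 3. Its log2 difference was 1.31 (SE 0.91), with limma p = 0.150, an exact permutation p of 0.3 and a range of 0.72 to 1.86 over the fits without 1 array. On miR-21 cKO array 3 it read 0.712 times the highest other array, so it did not stand apart there as 1436722_a_at did.

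The Affymetrix controls read beta-actin near its 3' end, its middle and its 5' end. The 3' control read 127, 103 and 149 in WT and 61.6, 73.7 and 15306 in miR-21 cKO. The 5' control read 368, 339 and 384 in WT and 394, 304 and 21268 in miR-21 cKO. The middle control read 1020, 538 and 1167 in WT and 1310, 57.2 and 11824 in miR-21 cKO. All 3 were highest on miR-21 cKO array 3, where they were 103, 53.9 and 9.03 times the highest other array for the 3' end, 5' end and middle. The 3' and 5' controls were below the background on all the other arrays, so these folds, too, are of measured signals only. Their log2 differences between genotypes were 1.72, 1.91 and 0.16, and the exact permutation test gave p = 1, 0.7 and 0.8. Without miR-21 cKO array 3 these differences were -0.89, -0.07 and -1.66. The same array gave 924 for the gamma-actin probe set of Actg1, 1.16 times the highest other array, and 1193, 296 and 2105 for the 3', 5' and middle controls of Gapdh, a glycolytic enzyme. On that array 18S ribosomal RNA read 827046, within the 407387 to 865108 of the others, and the 3' probe sets of the 4 poly-A controls, bacterial RNA added before labelling, were each highest there. They read 646156 for dap against 98638 to 610897 on the others, 393344 for lys against 34999 to 231957, 282433 for phe against 16763 to 203055 and 832840 for thr against 15526 to 326827. What set the beta-actin signals of that array apart was not tested.

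**Figure D4:**
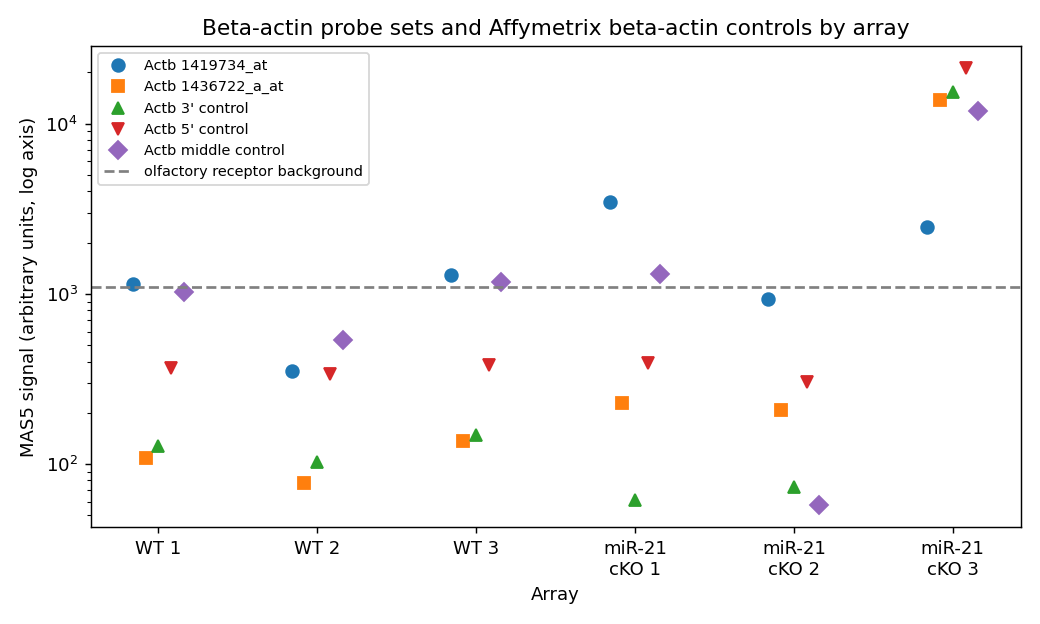
MAS5 signal (arbitrary units, log axis) of the 2 Actb probe sets and the 3 beta-actin controls on each of the 6 arrays, 1 point per probe set and array. The dashed line is the olfactory receptor background at 1100. On miR-21 cKO array 3 Actb 1436722_a_at and the 3 controls lie between 11824 and 21268, far above their other values, whereas Actb 1419734_at at 2464 stays within its range.

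The log2 ratio of the 3' to the 5' beta-actin control was compared between arrays, and it was -1.53, -1.72 and -1.37 in WT. It was -2.68, -2.05 and -0.47 in miR-21 cKO, which spread more widely and lay on both sides of the WT values. The genotypes differed by -0.20 in this ratio, with an exact permutation p of 0.8 (n = 3 and 3). Both controls were below the background on every array but miR-21 cKO array 3, so that on the other 5 this is a ratio of background signals and says nothing of how the transcript was covered.

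Actg1, the cytoplasmic gamma-actin, did not pass. Its 1 probe set, 1415779_s_at, read 498, 369 and 516 in WT and 795, 143 and 924 in miR-21 cKO. The WT arrays lay inside the range of the miR-21 cKO arrays, and the log2 difference was 0.05 (SE 1.24 in limma, exact permutation p = 1). By its own spread the 95% interval of the difference ran from -2.39 to 2.49, so changes of several-fold either way were not detectable with 3 arrays per genotype.

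Tpm2, a tropomyosin of muscle and of many other cells, had positive log2 differences in all 4 of its probe sets, and none passed. Probe set 1449577_x_at read 136, 43.7 and 983 in WT and 638, 1120 and 570 in miR-21 cKO. WT array 3 lay among the miR-21 cKO arrays, and the log2 difference of 2.04 (SE 1.33 in limma) became 3.26 and passed when that array was left out. Its suffix _x_at marks a set with probes that also match other sequences. Probe set 1419739_at read 191, 1637 and 52.9 in WT and 1177, 643 and 681 in miR-21 cKO, a log2 difference of 1.65 (SE 1.25). Here it was WT array 2 that was the highest of all, and without it the difference was 2.995. Probe set 1419738_a_at read 161, 708 and 554 in WT and 619, 570 and 1430 in miR-21 cKO, a log2 difference of 1.00 (SE 1.17). Probe set 1425028_a_at read 955, 106 and 87.2 in WT and 969, 209 and 47.7 in miR-21 cKO, a log2 difference of 0.04 (SE 1.501). The mean log2 difference over the 4 was 1.18. The WT array that read highest was array 1, 2 or 3 depending on the probe set.

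Tpm3, whose isoforms include short ones of the cytoskeleton, had negative log2 differences in 3 of 5 probe sets and positive ones in 2, and none passed. The probe set furthest down, 1427260_a_at, read 763, 521 and 1526 in WT and 596, 37.1 and 427 in miR-21 cKO. Its log2 difference of -2.002 (SE 1.28 in limma, p = 0.117, exact permutation p = 0.2) became -0.75 without miR-21 cKO array 2, the array with the low value. The probe set furthest up, 1427567_a_at, read 36.7, 1227 and 56.3 in WT and 751, 455 and 339 in miR-21 cKO, a log2 difference of 1.84 (SE 1.46). The remaining Tpm3 probe sets had log2 differences of -0.67 (1436958_x_at), -0.73 (1449996_a_at) and 0.64 (1449997_at), with single values between 30.1 and 1793. The mean log2 difference over the 5 was -0.18. Tpm4, a tropomyosin of non-muscle cells, was read by 1433883_at at 127, 82.4 and 313 in WT and 50.7, 813 and 83.0 in miR-21 cKO, all below the background, with a log2 difference of 0.02 (SE 1.48).

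Probe sets of the same gene agreed little across the 6 arrays. Over the 26 pairs of member probe sets within a gene, Pearson's r of log2 signals ran from -0.73 to 0.56 with a median of 0.07, and 15 pairs were positive and 11 negative. Together with the 9 pairs that include a beta-actin control, 35 pairs were compared, and 0 passed after adjustment (smallest adjusted exact permutation p 0.859 for Pearson's r and 0.0972 for Spearman's coefficient). The 2 Actb probe sets had r = 0.55 and a Spearman coefficient of 0.77 (exact permutation p = 0.293 and 0.103, n = 6). With miR-21 cKO array 3 kept, r was 0.91 without WT array 2 and miR-21 cKO array 1. Without miR-21 cKO array 3 alone it was 0.79. Actb 1436722_a_at and the 5' control had r = 0.98 and a Spearman coefficient of 0.66 (exact permutation p = 0.0736 and 0.175, n = 6). That relation rested on miR-21 cKO array 3, since r was 0.04 without it and -0.24 without it and WT array 2. The pair of Tpm1 1423049_a_at and 1423721_at had r = 0.56 and a Spearman coefficient of 0.43 (exact permutation p = 0.251 and 0.419, n = 6), and r = -0.76 without miR-21 cKO arrays 2 and 3. The arrays are of both genotypes, so a shared genotype difference also enters these values.

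Other genes of the actin cytoskeleton were counted by the probe set with the highest mean. Of 96 measured in 7 lists (106 listed), 1 rose and 1 fell in limma at the thresholds of the methods, against 2.09% of all genes higher and 2.28% lower. The median log2 difference was -0.19, against -0.04 for all 18193 genes, and the medians of the lists ran from -0.70 for nucleation to 0.21 for SRF and its targets. Cdc42, a small GTPase that starts filopodia, rose by 4.95 on the log2 scale (SE 1.01, limma adjusted p = 0.00634). Its probe set read 43.3, 702 and 148 in WT and 1342, 26182 and 3752 in miR-21 cKO, without overlap. The difference was 3.76 without miR-21 cKO array 2 and passed in all 6 fits without 1 array, and of the 4 Cdc42 probe sets this 1 rose. All 3 WT values lay below the background, so the fold is one of measured signals only. Coro1a, a coronin that binds filaments in leukocytes, fell by 3.10 on the log2 scale (SE 1.36, limma adjusted p = 0.9999). It read 1033, 1131 and 854 in WT and 305, 62.4 and 82.6 in miR-21 cKO, also without overlap, and it did not pass without WT array 1 or WT array 2. Its miR-21 cKO values lay below the background, and it was 1 of 3 Coro1a probe sets that fell. None passed among 3 other actins, 16 genes of nucleation (Arp2/3, formins and their activators), 18 of bundling and membrane links, 13 of non-muscle myosin and 11 of SRF and its targets. Coro1a was 1 of 21 genes of turnover and capping.

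Markers of the cells that a DRG sort could hold were also counted. Of 14 macrophage markers Itgam and Cd14 (a receptor for bacterial lipopolysaccharide) rose, by 2.51 and 2.47 on the log2 scale (limma, adjusted p = 0.9999 for both). By this rule 2.09% of all genes were higher and 2.28% lower. The median log2 difference over the 14 was 0.27, and the summed signal was 11646 to 18770 in WT and 7667 to 31684 in miR-21 cKO. Itgam passed in 1 of 6 fits without 1 array (without WT array 3) and was 1.47 without WT array 2. Cd14 passed in 2 of 6 (without WT array 1 or miR-21 cKO array 2) and was 1.52 without miR-21 cKO array 3. None passed among 14 markers of skeletal muscle, 10 of fibroblasts, 10 of endothelium and 7 of Schwann cells and satellite glia. The summed signal of the Schwann cell and glia list was 2836 to 4449 in WT and 5490 to 6468 in miR-21 cKO, which do not overlap. Taken singly, 0 of its 7 markers were without overlap, against 9.81% of all probe sets, and the sums were not tested. For skeletal muscle it was 6806 to 11698 in WT and 9591 to 10500 in miR-21 cKO, for fibroblasts 5653 to 7906 and 3692 to 6485, and for endothelium 6443 to 9498 and 5976 to 8243. Of 12 sensory neuron markers Nefl, a neurofilament protein, rose by 2.97 and Gal, the neuropeptide galanin, by 3.84 on the log2 scale (limma, adjusted p = 0.687 and 0.9999). The median log2 difference over the 12 was 0.07, and the summed signal was 9801 to 20616 in WT and 15277 to 21246 in miR-21 cKO. Nefl and Gal both passed in all 6 fits without 1 array, though Nefl was 1.55 without WT array 2. The methods' t-test called Gal and none of Nefl, Itgam and Cd14, and 1 of 2 Nefl probe sets rose. For Itgam, Cd14, Gal and Rgs5 all WT values, and for Des all miR-21 cKO values, lay below the background. The part of these cells in the actin and tropomyosin signals was not tested.

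The genes most like the brightest probe sets of Acta2 and Actb were sought among 1546 probe sets of 1 named gene with a mean above the background, by Pearson's r of log2 signals over the 6 arrays. For Acta2 1416454_s_at these were Cend1 (r = 0.96), Ppp1r32 (r = 0.95) and Neurl1a (r = 0.94), and like Acta2 all 3 were higher on every miR-21 cKO array than on any WT array. For Actb 1419734_at they were D8Ertd738e (r = 0.95), Ahdc1 (r = 0.95) and Myo7b (r = 0.94). Genes chosen by likeness to a probe set that separates the genotypes tend to separate them too, so the shared order for Acta2 is no finding by itself. With 6 arrays of both genotypes and so many candidates the r values are descriptions and carry no test.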

How the data were processed

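RNA of sorted macrophages was measured on 6 Affymetrix Mouse 430V2 arrays, 3 per genotype, with genotype and replicate number taken from the labels. The authors amplified it with the WT Pico kit and ran MAS5 in Expression Console. Each deposited value is a linear intensity, 1 per probe set and array, and every array was scaled to a trimmed mean (2% from each end) of 500.0. No MAS5 version and no detection calls were to hand. The number of arrays limits the precision.

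The table held 45101 probe sets, of which 64 controls were left out. Names came from the platform annotation, updated for 34741 probe sets through RefSeq genes of GRCm38.p6 (1 gene for 34945 probe sets, several for 932, none here for 9160). The log2 of each signal was used, without pseudocount or filter. Differences came from limma 3.58.1 in R 4.3.3 (lmFit, eBayes with an intensity trend, Benjamini-Hochberg adjustment over 45037 probe sets). As the estimated prior had infinite degrees of freedom, its standard errors follow the trend and not the single probe set. The thresholds, unadjusted p under 0.05 and at least 2-fold, are those of the array methods, which name no test. Student's test with equal variance, named in the statistics section, is called the methods' t-test and also gave the 95% intervals. Exact permutation tests ran over arrays, two-sided. Beta-actin controls were tested as single values. The limma script was tested on simulated data. Python 3.11.15 with matplotlib 3.10.9 drew the figures.

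All probe sets of the 7 genes are named. From the lists, up to 4 called genes with the smallest p are named, each by its probe set with the highest mean, and beside them the 3 genes most like Acta2 and Actb. Values of Adgre1, Myh11, Tagln, Cnn1, the other actins and the controls were added as checks. Of the 7 cytoskeleton lists, 1 is not reported here by itself. Members and lists were chosen with earlier results of these data known. The alternatives were centring on the median, quantile normalization, signals floored at their 25th percentile, filters at the median and at the background, array weights, eBayes with no trend, a replicate block, the methods' t-test, folds of linear means, the mean of a gene's probe sets, dropping _x_at and _s_at sets, and leaving out each array. For the beta-actin controls, their limma fit and leaving out arrays were chosen after seeing the data.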

Additional observations from a re-analysis of the deposited data

How the results depend on the processing

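The count of probe sets called over all was 2031, and 1427 to 2225 under all other settings but the filters, which test fewer probe sets (971 at the median mean, 71 at the olfactory receptor background). It was 1638 to 2125 without 1 array. The count of members called was 1, and 1 under the other settings except for 0 with the background filter, which left 2 members, and 2 with the methods' t-test. It was 0 to 2 without 1 array. The replicate numbers did not pair the arrays (correlations of same-numbered deviations -0.02, -0.02 and -0.03). With the replicate block 1935 probe sets were called, 1 of them a member, and no member's call changed. With the floor the 1 member called was another one, since Actb 1436722_a_at lost its call (2.95, limma p above 0.05) and Tpm1 1423049_a_at gained one (2.40). Among single members the log2 difference turned for Tpm1 1456623_at with the floor (0.48) and with linear means (1.03), for Tpm2 1425028_a_at with array weights (-0.11) and for Tpm3 1436958_x_at with linear means (0.014). The cause was not tested. Over the settings that keep all arrays, 164 single values of member probe sets kept direction and side of the threshold. Of the rest, 4 turned, 3 gained a call and 2 lost one.

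Without 1 array in turn the sign depended on the array for Acta2 1444105_at (-0.86 to 1.18), Actg1 1415779_s_at (-0.44 to 0.91), Tpm1 1423721_at (-0.39 to 1.55), Tpm1 1456623_at (-1.80 to 0.63), Tpm2 1425028_a_at (-1.05 to 1.14), Tpm3 1449996_a_at (-2.29 to 0.39), Tpm3 1449997_at (-0.078 to 1.67) and Tpm4 1433883_at (-1.19 to 0.81). The same held for the 3', 5' and middle beta-actin controls (-0.89 to 3.09, -0.067 to 2.997 and -1.66 to 2.19) and for the difference of the log2 3' to 5' ratio (-0.83 to 0.28). Most member signals lay under the background, which limits what their differences can show.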

Other observations

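Signals above 5000 on 1 array with all others under 1000 were found for 5, 3 and 3 probe sets on arrays 1, 2 and 3 of WT and for 2, 2 and 6 on those of miR-21 cKO. The 6 on miR-21 cKO array 3, chosen after their values were seen, were Actb 1436722_a_at, a pair of Kmt2e, of which 1432602_at read 369471 against at most 913 elsewhere, and 1 each of P2rx7, Psma5 and Wdr18.

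The arrays on which the actin and tropomyosin probe sets read highest were not the same. Of the 20, 0, 2 and 4 were highest on arrays 1, 2 and 3 of WT, and 3, 7 and 4 on those of miR-21 cKO. Their lowest values were on WT arrays for 4, 5 and 2 and on miR-21 cKO arrays for 3, 3 and 3. The median signal over the 20 was 201, 348 and 303 in WT and 607, 502 and 498 in miR-21 cKO, while the median over the whole table was 305, 309.5 and 271 in WT and 279, 286 and 301 in miR-21 cKO.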
